A study of Maylandia zebra with 2 samples.

Results

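Cluster 1 of the deposited clustering is 1 of 5 clusters that the authors placed in their Epithelial class, and it was taken here as the 222 kept nuclei that the deposited annotation assigns to it. They are 222 of 808 Epithelial nuclei and 222 of 1296 kept nuclei, or 17.1% (15.1% to 19.3%, exact Clopper-Pearson 95% interval) of all kept nuclei. The working name of the cluster calls its nuclei basal, meaning that they belong to the layer that rests on the basement membrane. The nearest clusters are 0 (234 nuclei) and 7 (65 nuclei), which carry the same name, and the other Epithelial clusters are 3 (158 nuclei) and 4 (129 nuclei).

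The study sequenced single nuclei from oral lamina tissue next to replacement teeth of Maylandia zebra, an African cichlid fish that renews its teeth throughout life. Upper and lower jaw each gave 1 library. Nuclei were released by lysis, sorted as DAPI-stained singlets and captured with 10x Chromium V3 chemistry, which reads 1 end of each transcript and marks every molecule with a unique molecular identifier (UMI). No treatment, genotype or age contrast is given in the labels, and the nuclei of both jaws share 1 table in which the barcode suffixes 1 and 2 are not tied to a jaw. All nuclei were therefore handled as 1 sample, no difference was tested, and intervals after a value cover counting error only.

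In a stratified epithelium the basal layer holds the proliferative and stem cells, and cells move upward and differentiate once they leave the basement membrane. Basal cells are anchored by hemidesmosomes, in which integrin alpha6 beta4 and plectin tie keratin filaments to laminin, and by focal adhesions, in which integrins bound to collagen and laminin are tied to actin. Teeth form and are replaced from the dental lamina, an epithelial ingrowth that is continuous with the oral basal layer and signals to the mesenchyme below through the Wnt, hedgehog, FGF, BMP, Notch and ectodysplasin pathways.

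The 222 nuclei held 146240 UMIs, with a median of 632 UMIs (374 to 1236) and 457 genes (303 to 825) per nucleus. Median depth was 1703 UMIs in cluster 0, 1012 in cluster 7, 565 in cluster 3 and 753 in cluster 4. The deepest nucleus of cluster 1 held 1236 UMIs, and 180 of the 234 nuclei of cluster 0 held more than that. The deposited value named cyto, a fraction per nucleus, had a median of 0.637 in cluster 1, 0.877 in cluster 0, 0.819 in cluster 7, 0.475 in cluster 3 and 0.279 in cluster 4. Cluster 1 made up 17.9% of the 754 kept nuclei with suffix 1 and 16.1% of the 542 with suffix 2, while cluster 0 made up 13.5% and 24.4%. No nucleus of cluster 1 shared its barcode sequence with a nucleus of the other suffix, and 0 of the 222 were called doublets by Scrublet, which called 42 of all 1296.

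**Figure D1:**
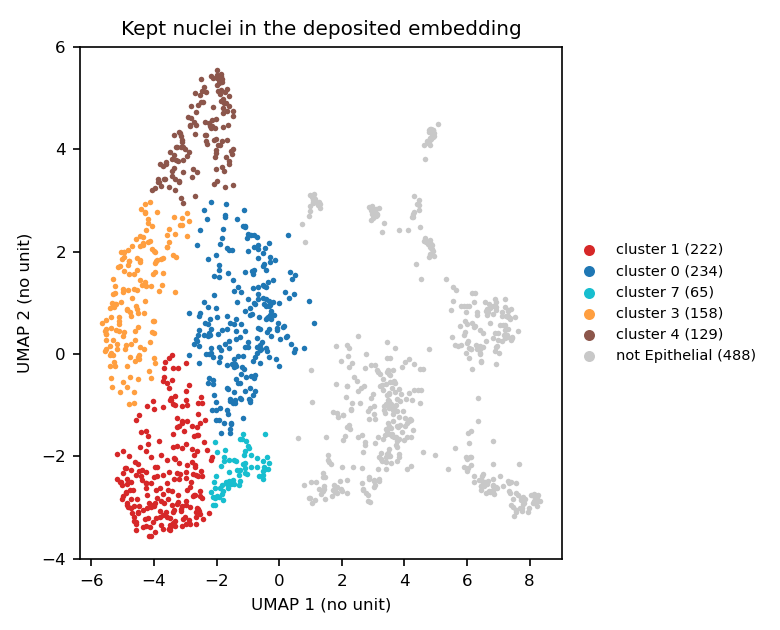
Kept nuclei in the authors' embedding, with both axes in the embedding's own scale without unit; 1 point is 1 nucleus and the legend gives the nuclei per group. Cluster 1 (222 nuclei, red) borders clusters 0, 7 and 3 and lies apart from the 488 nuclei outside the Epithelial class.

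The label was first checked against 5 marker genes, agrn, bnc2, jag2b, myh9a and itga2.2, which were chosen from these data, so their levels describe the cluster and support nothing further. All 5 were higher in cluster 1 than in clusters 3 and 4, and their order among clusters 1, 0 and 7 differed from gene to gene. Levels are given as counts per 1000000 UMIs (CPM) of the summed UMIs of a cluster. The gene agrn encodes agrin, a heparan sulfate proteoglycan of basement membranes, and measured 2940.4 CPM in cluster 1, 1874 in cluster 0, 2999 in cluster 7, 412 in cluster 3 and 403 in cluster 4. For bnc2, which encodes the zinc-finger protein basonuclin 2, the levels were 1655 CPM in cluster 1, 1074 in cluster 0, 1655 in cluster 7, 823 in cluster 3 and 315 in cluster 4. Clusters 1 and 7 were thus level for these genes and cluster 0 was lower.

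The Notch ligand gene jag2b measured 841 CPM in cluster 1, 525 in cluster 0, 481 in cluster 7, 115 in cluster 3 and 80.7 in cluster 4. Its interval in cluster 1, 699 to 1004 CPM, lay above the interval of each other cluster. The heavy chain of non-muscle myosin IIA, myh9a, stood at 834 CPM in cluster 1, 492 in cluster 0, 749.8 in cluster 7, 278 in cluster 3 and 117 in cluster 4. The collagen receptor subunit gene itga2.2 reached 547 CPM in cluster 1, 404 in cluster 0, 509 in cluster 7, 95.7 in cluster 3 and 95.4 in cluster 4, and here the intervals of clusters 1, 0 and 7 overlapped. Within cluster 1 the level was 3146 CPM for agrn in suffix 1 and 2643 in suffix 2, and for jag2b it was 1052 and 535.

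**Figure D2:**
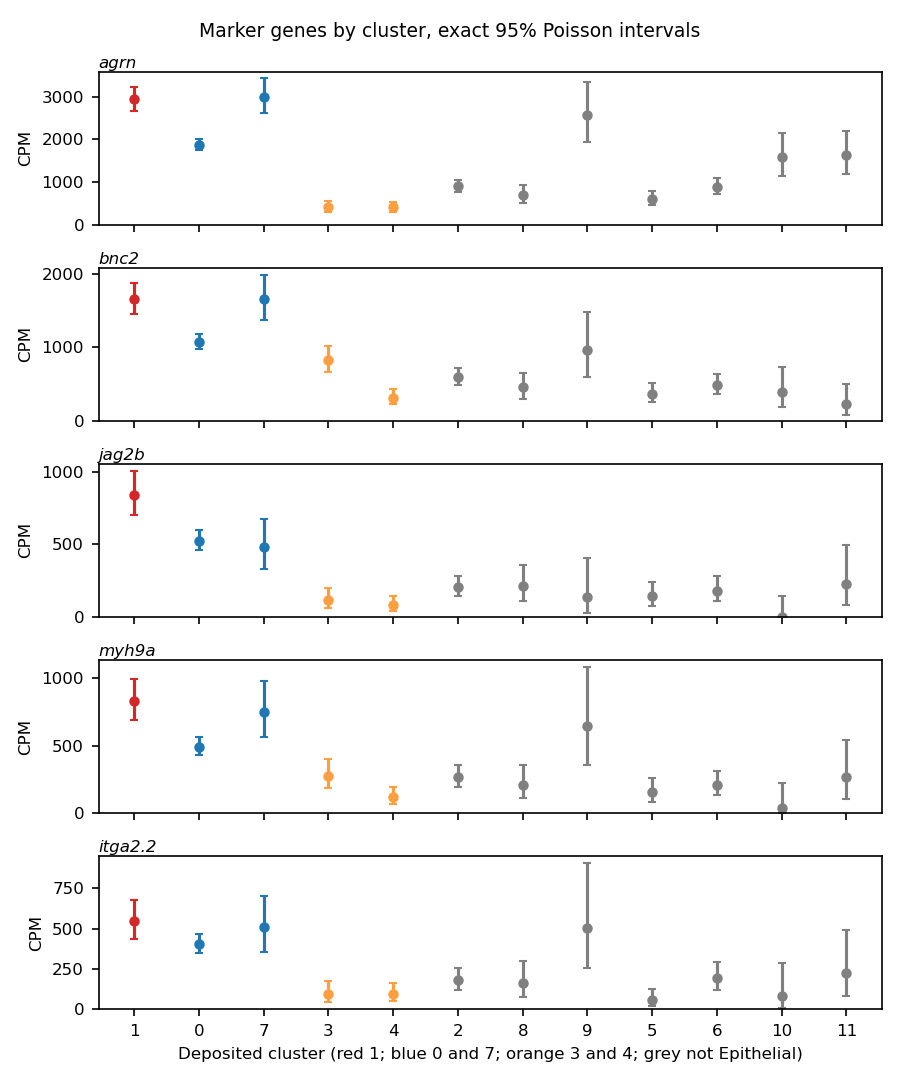
Level of the 5 marker genes, in CPM, in each deposited cluster; points are levels in CPM and bars exact 95% Poisson intervals. Cluster 1 is at the left: agrn is 2940.4 CPM there and 2999 in cluster 7, while jag2b is 841 CPM there and 525 in cluster 0; cluster 9, in the Immune class, reaches 2578 CPM for agrn.

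Because deeper nuclei show more genes, every nucleus was also thinned to 500 UMIs, which left out the 44 nuclei of cluster 1 that were shallower. At this depth 91.0% of 178 nuclei of cluster 1 carried at least 1 of the 5 markers, against 83.8% of cluster 0, 95.4% of cluster 7, 37.7% of cluster 3 and 27.9% of cluster 4. The share was 42.6% in the 223 Immune nuclei of that depth and 38.4% in the 198 Immune nuclei outside cluster 9, so a marker UMI was also frequent outside the epithelium. At least 2 of the 5 were seen in 64.6% of cluster 1, 47.9% of cluster 0, 72.3% of cluster 7, 14.2% of cluster 3 and 19.3% of Immune nuclei. Without thinning, 95.9% of cluster 1, 98.3% of cluster 0 and 52.3% of Immune nuclei carried any of them.

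Single markers were also looked at with 500 UMIs per nucleus. A UMI of agrn was found in 64% of nuclei in cluster 1, 56% in cluster 0, 72.3% in cluster 7 and 25.1% of Immune nuclei. For jag2b the shares were 32%, 23.1%, 21.5% and 5.38% in the same order. One Immune cluster, cluster 9 with 35 nuclei, held the summed 5 markers at 4834 CPM, compared with 2142 in Immune cluster 2 and 6818 in cluster 1.

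A wider basal list of 14 features (integrins, laminins, keratins 5 and 15, tp63 and others) summed to 30498 CPM in cluster 1, 29147 in cluster 0, 28802 in cluster 7, 20942 in cluster 3 and 10152 in cluster 4. 10 of these features were detected in cluster 1, and 4 had no UMI, namely cd151, itga6a and 2 of the 4 features that share the name tp63. The tp63 feature with the most UMIs (ENSMZEG00005004844), a copy of the gene for the master transcription factor of stratified epithelium, measured 1067 CPM in cluster 1, 1007 in cluster 0, 1146 in cluster 7, 679.5 in cluster 3 and 293 in cluster 4. Keratin 5, krt5, the type II keratin of basal cells, stood at 15564 CPM in cluster 1, 15757 in cluster 0, 12406 in cluster 7, 14424 in cluster 3 and 6609 in cluster 4, and keratin 15, krt15, at 5183 CPM in cluster 1, 5389 in cluster 0, 4442 in cluster 7, 4221 in cluster 3 and 2025 in cluster 4. Both keratins were lowest in cluster 4. Within cluster 1 the basal list summed to 25907 CPM in suffix 1 and 37139 in suffix 2. A list of 8 keratin features summed to 17036 and 27034 CPM there. The suffixes thus differed more within cluster 1 than the basal list did among clusters 1, 0 and 7. The part of the suffix mix in those levels was not tested.

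Markers of most other cell types were low. The 18 immune features summed to 63 UMIs (431 CPM) in cluster 1, against 7620.0 CPM in Immune cluster 2, and ptprc, coro1a, csf1ra, ikzf1 and lcp1 were among the 10 that had no UMI. Of these 10, only 5 had at least 30 UMIs in cluster 1 and nuclei outside the Epithelial class together, and csf1ra was not among them. Pigment markers summed to 41 CPM, endothelial ones to 34.2 and taste bud ones to 356, the last against 6942 CPM in cluster 10. Neuron and glia markers were not lower than elsewhere. They summed to 650 CPM in cluster 1 (95 UMIs, with 43 of mbpb and 36 of rbfox3b), against 528 over all kept nuclei. The same list had 566 CPM in cluster 0, 523 in cluster 7, 479 in cluster 3, 374 in cluster 4 and 686 in Immune cluster 2. Mesenchymal markers summed to 2899 CPM (424 UMIs), which was 2747 in cluster 0, 3522 in cluster 7, 660.4 in cluster 3 and 15274 in the Mesenchymal cluster 6. Of those 22 features 7 had no UMI in cluster 1, including prrx1b, twist1a, pdgfra and col6a1. Only 2 of the 7, prrx1b and col6a1, had at least 30 UMIs in cluster 1 and nuclei outside the Epithelial class together.

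The first comparison set cluster 1 beside clusters 3 and 4 together (287 nuclei, 240806 UMIs). Of 2874 features with at least 30 UMIs in both sets combined, 453 (15.8%) were at least 2-fold higher in cluster 1 and 549 (19.1%) at least 2-fold lower, and the median log2 ratio was -0.05. Among the genes named below, those of adhesion to the basement membrane were mostly on the higher side, and those of tight junctions and the cornified envelope mostly on the lower one. Since the clusters were built from the same counts, these differences describe the clusters and are not a test.

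Hemidesmosome and basement membrane genes were nearly all higher. Of 38 features on that list 11 had enough UMIs, and 9 were at least 2-fold higher in cluster 1, 1 was lower, and the median log2 ratio was 2.27. The higher ones include the marker agrn, which was chosen from these data, so its place among them is no further result. Integrin alpha6, itga6b, measured 4376 CPM in cluster 1, 3573 in cluster 0, 5376 in cluster 7, 584 in cluster 3 and 572 in cluster 4, which was 7.58-fold higher (6.3 to 9.17) than in clusters 3 and 4. Its partner integrin beta4, itgb4, was 6.8-fold higher (5.3 to 8.8), and the laminin receptor subunit itga3b was 4.61-fold higher (3.4 to 6.31). The basement membrane protein gene frem2b showed the highest ratio of the list, 16.9 (6.11 to 64.9), on 41 UMIs in cluster 1 and 4 in clusters 3 and 4.

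The linker and matrix members followed. Plectin, which joins integrin beta4 to keratin, is present as 2 gene copies that went opposite ways. The copy plecb measured 8472 CPM in cluster 1 and was 3.53-fold higher (3.2 to 3.9) than in clusters 3 and 4. The copy pleca measured 88.9 CPM and was 2.99-fold lower (1.63 to 5.92). The gene col7a1, for the collagen of anchoring fibrils, was 4.97-fold higher (3.59 to 6.99), and DST, which encodes the hemidesmosome plakin dystonin, 2.56-fold higher (1.89 to 3.49).

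Integrin and focal adhesion genes gave a like picture, with 9 of 11 measured features at least 2-fold higher, none lower and a median log2 ratio of 2.45. These higher features include the marker itga2.2, which was likewise chosen from these data. Talin, tln1, the protein that couples integrins to actin, was 8.05-fold higher (3.88 to 18.8). Kindlin-1, fermt1, which activates integrins together with talin, was 7.0-fold higher (3.68 to 14.4). The parvin gene parvaa was 6.84-fold higher (3.68 to 13.7) and the focal adhesion kinase gene PTK2 3.73-fold higher (2.13 to 6.77). Among receptor subunits, itgb3a was 7.41-fold higher (3.39 to 18.5) and itgav 2.75-fold higher (2.05 to 3.71). The actin crosslinker actn1, which sits in focal adhesions, was 4.85-fold higher (3.69 to 6.44), whereas its relative ACTN4 had a ratio of 0.643 (0.508 to 0.808).

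Collagen genes outside the basement membrane list, usually read as mesenchymal, were also higher than in clusters 3 and 4, in 7 of 7 measured features with a median log2 ratio of 2.58. The gene for a type I collagen chain, col1a2, measured 451 CPM in cluster 1, 395 in cluster 0, 594 in cluster 7, 57.4 in cluster 3 and 44 in cluster 4, and 1007 in the Mesenchymal cluster 6. The matricellular gene postnb, for periostin, was 11.1-fold higher (6.54 to 20.1) and had 739 CPM in cluster 1, 564 in cluster 0, 792 in cluster 7 and 109 in cluster 6. Collagens that decorate fibrils followed, with col14a1b 5.38-fold higher (3.88 to 7.56) and col12a1b 6.08-fold higher (3.91 to 9.77). Beside these values, prrx1b, twist1a, pdgfra and col6a1 had no UMI in cluster 1, and COL6A3 had 2 UMIs there and 170 in cluster 6. The genes twist1a and pdgfra had fewer than 30 UMIs in cluster 1 and nuclei outside the Epithelial class together. Their lack of UMIs in cluster 1 thus says little. Of the 15 mesenchymal features with a UMI in cluster 1, postnb had 108, sparc 78, col1a2 66, mmp2 30, postna 29 and dcn 19, and 7 of 8 measured features of that list were at least 2-fold higher than in clusters 3 and 4, with a median log2 ratio of 2.77. The part of mesenchymal RNA in the collagen levels was not tested.

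Matrix proteases split. Of 10 measured features on the list of proteases and inhibitors, 6 were at least 2-fold higher and 1 lower, with a median log2 ratio of 1.30. The serine protease gene htra1b was 6.7-fold higher (3.69 to 13) and the gelatinase gene mmp2 8.23-fold higher (3.37 to 24.2). The lower one was st14a, for the epithelial membrane protease matriptase, which was 4.49-fold lower (1.76 to 14.6). The membrane-type metalloprotease gene mmp15b, with 479 CPM in cluster 1 and 1320.4 in cluster 4, had a ratio of 0.503 (0.379 to 0.661).

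Tight junction genes lay at the other end. Of 9 measured tight junction features 5 were at least 2-fold lower and 1 higher, with a median log2 ratio of -2.61. The higher one was cldn1, a claudin of the epidermal barrier, which measured 376 CPM in cluster 1, 315 in cluster 0, 325 in cluster 7, 47.9 in cluster 3 and 36.7 in cluster 4 and was 9.06-fold higher (4.57 to 19.9). Another claudin, cldnb, had 1 UMI in cluster 1 and 93 in clusters 3 and 4, of which 88 were in cluster 4, a ratio of 0.0177 (0.000444 to 0.101). The scaffold ZO-1, tjp1a, was 6.35-fold lower (3.42 to 13.1), and cgnl1, for the junction protein paracingulin, had no UMI in cluster 1 and was at least 8.7-fold lower.

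Desmosomal plaque genes differed from envelope genes. Of 15 measured features on the joint list, 4 were at least 2-fold lower and none higher, with a median log2 ratio of -0.67. Over all features 19.1% were lower and 15.8% higher, so the lower part of the list was little above that share. All 4 encode parts of desmosomes or of the envelope of differentiating cells: envoplakin as evpla (19.2-fold lower (10.3 to 40.4)) and evplb (18.4-fold lower (6.11 to 91)), periplakin as ppl (6.93-fold lower (4.56 to 11)), and perp (2.57-fold lower (2.16 to 3.08)). The plaque proteins plakoglobin, jupa, and plakophilin 3, pkp3a, stayed within 2-fold, with ratios of 0.862 (0.694 to 1.07) and 0.868 (0.70 to 1.07). Keratin 4, krt4, a keratin of upper mucosal layers, measured 171 CPM in cluster 1 and 3484 in cluster 4, and was 12.5-fold lower (8.39 to 19.6).

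Among the 10 genes lowest in this comparison, fa2h, a fatty acid hydroxylase, and glulc, a glutamine synthetase gene, had no UMI in cluster 1. Each was at least 20.2-fold lower. The NADPH oxidase gene nox1 had 1 UMI against 105, a ratio of 0.0157 (0.000393 to 0.0893), and the scaffold gene homer2 1 against 111, a ratio of 0.0148 (0.000372 to 0.0844). The junction scaffold gene magi1b was 23.8-fold lower (10.8 to 65.5). Most of the UMIs of these genes came from cluster 4, where fa2h measured 609 CPM, glulc 712, nox1 719 and magi1b 1496.

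**Figure D3:**
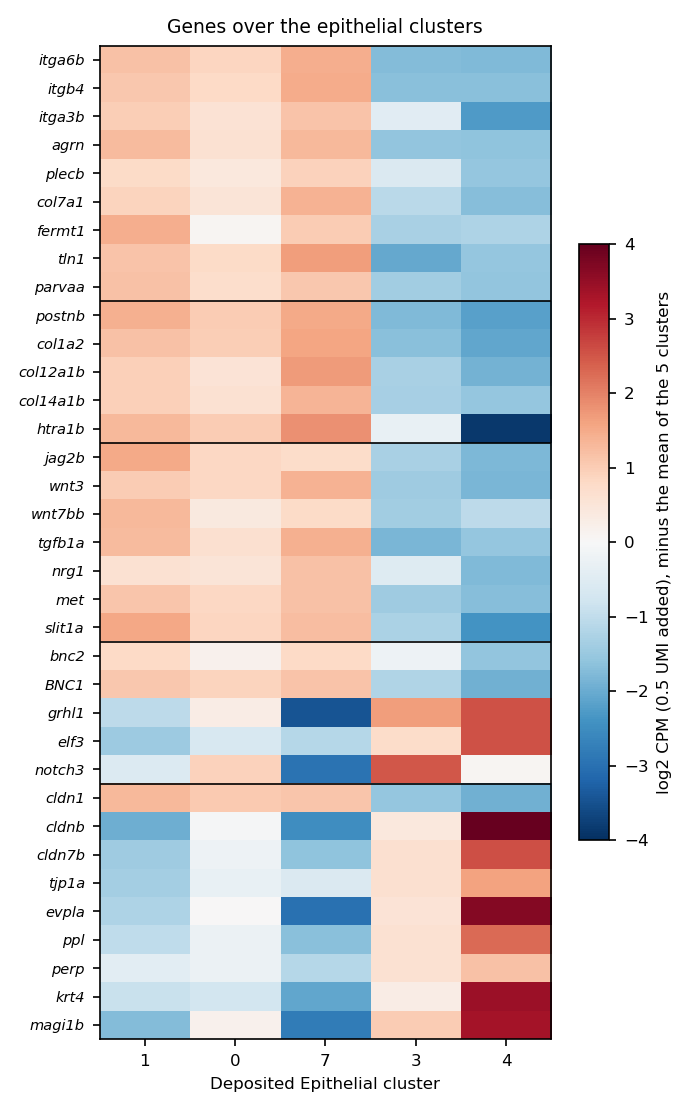
Named genes (rows, grouped by role) over the 5 Epithelial clusters (columns); colour is the log2 CPM of the gene, with 0.5 UMI added, minus its mean over the 5 clusters. Attachment and matrix genes are red in clusters 1, 0 and 7 and blue in clusters 3 and 4. Junction genes other than cldn1 mostly run the other way, but magi1b in cluster 0 is close to its mean. The level of jag2b is 841 CPM in cluster 1 and 80.7 in cluster 4.

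Signalling genes were read pathway by pathway, beside 15.8% of all features at least 2-fold higher than in clusters 3 and 4 and 19.1% lower. In the Notch list 1 of 12 measured features was at least 2-fold higher than in clusters 3 and 4 and 4 were lower, with a median log2 ratio of -0.42. The higher one was jag2b, 8.81-fold higher (5.61 to 14.4). As a marker chosen from these data, its place on the higher side is no further result, and no other Notch feature was at least 2-fold higher. The second ligand gene, jag1b, was 1559 CPM in cluster 1 and 2096 in cluster 3, with a ratio of 1.18 (0.995 to 1.41) to clusters 3 and 4. The lower ones included 2 receptor genes: notch3 measured 109 CPM in cluster 1 and 899.7 in cluster 3 and was 4.44-fold lower (2.62 to 8.03), and notch2 was 2.45-fold lower (1.6 to 3.89). The Notch antagonist numb was 5.64-fold lower (2.59 to 14.6) and the effector gene her9 5.16-fold lower (1.84 to 20.02).

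Wnt genes were higher in 8 of 20 measured features and lower in none, with a median log2 ratio of 0.73. Ligands took part: wnt3 was 7.0-fold higher (3.18 to 17.5), wnt7bb 5.81-fold higher (3.45 to 10.2) and wnt7aa 2.08-fold higher (1.16 to 3.76). The R-spondin receptor gene lgr4 was 3.75-fold higher (2.11 to 6.94). The feedback ubiquitin ligase RNF43 measured 1846 CPM in cluster 1, 1783 in cluster 0, 2179 in cluster 7, 1551 in cluster 3 and 902 in cluster 4, and the nuclear factor gene tcf7l2 had a ratio of 1.14 (0.947 to 1.37). LGR6, another R-spondin receptor and a marker of skin stem cells in the mouse, had only 18 UMIs in cluster 1, with 123 CPM there, 243 in cluster 0, 169.8 in cluster 7 and 47.9 in cluster 3.

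In the hedgehog list 4 of 6 measured features were at least 2-fold higher and 1 lower, with a median log2 ratio of 1.70. The target and effector gene gli1 measured 164 CPM in cluster 1, 189 in cluster 0, 226 in cluster 7, 67 in cluster 3 and 29.3 in cluster 4, the co-receptor gene boc was 4.32-fold higher (2.38 to 8.24), gli3 3.01-fold higher (1.96 to 4.69) and scube3, which encodes a secreted partner of the pathway, 4.14-fold higher (2.88 to 6.03). The inhibitor gene sufu was 5.77-fold lower (2.08 to 22.3) on 4 UMIs. In the BMP and TGF-beta list 5 of 16 were higher and none lower (median log2 ratio 0.25): the ligand gene tgfb1a was 8.44-fold higher (3.91 to 20.8), the latent TGF-beta binding protein gene ltbp1 4.72-fold higher (3.08 to 7.41), the tolloid protease gene bmp1a 5.56-fold higher (2.46 to 14.2), and the BMP target id1 2.23-fold higher (1.47 to 3.41).

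Receptor and ligand genes of the growth factor list were higher in 7 of 18 measured features and lower in 3, with a median log2 ratio of 0.35. The lower part was close to the 19.1% of all features that were lower. The hepatocyte growth factor receptor, met, measured 903 CPM in cluster 1, 748 in cluster 0, 934 in cluster 7, 153 in cluster 3 and 125 in cluster 4. Ligands of the EGF receptor family were present as nrg1 (3.24-fold higher (2.59 to 4.06)), nrg2a (3.66-fold higher (2.78 to 4.85)) and areg (3.1-fold higher (1.67 to 5.95)), while hbegfa was 2.43-fold lower (1.19 to 5.45) and the receptor gene erbb2 2.83-fold lower (1.36 to 6.62). The collagen receptor kinase ddr1 was 3.44-fold higher (2.39 to 5.0). Of the FGF list only 4 features could be measured, and FGFR1 was the one past 2-fold, 3.25-fold higher (2.45 to 4.34), while fgfr2 measured 2161 CPM in cluster 1 and 2161 in cluster 0 and fgfr3 had a ratio of 0.629 (0.411 to 0.944) to clusters 3 and 4.

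Of the ectodysplasin list 1 of 7 measured features was higher, TNFRSF19, 3.76-fold higher (1.95 to 7.63), and the receptor gene edar, known for its part in tooth and scale placodes, had 14 UMIs in cluster 1 (95.7 CPM), with 156 CPM in cluster 0 and 127 in cluster 7. In the Hippo list 4 of 14 were higher and 3 lower. The protocadherin gene fat1a was 4.31-fold higher (3.11 to 6.05) and ajuba 4.61-fold higher (2.17 to 10.6), whereas the DNA-binding factor tead3b was 2.81-fold lower (1.87 to 4.35) and the coactivator yap1 had a ratio of 0.607 (0.399 to 0.903). The median log2 ratio was -0.05 for the ectodysplasin list and 0.38 for the Hippo list. Over all features 15.8% were higher and 19.1% lower. The higher part of the ectodysplasin list and the lower part of the Hippo list were close to these shares. Axon guidance genes, many of which also act between epithelium and mesenchyme, were higher in 11 of 29 and lower in 8. Their median log2 ratio was 0.66. Among them the secreted semaphorin sema3fb measured 2181 CPM and was 3.41-fold higher (2.81 to 4.16), plxna4 was 3.05-fold higher (2.34 to 4.0), and the receptor gene PLXNA1 was 8.46-fold lower (4.82 to 16.2).

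Transcription factor genes on the epithelial list were higher in 6 of 34 measured features and lower in 10, with a median log2 ratio of -0.23, beside 15.8% higher and 19.1% lower over all features. The higher part was thus close to the share over all features, and it includes the marker bnc2, which was chosen from these data. The higher ones included BNC1, the basonuclin 1 gene of basal keratinocytes, 6.59-fold higher (3.76 to 12.2), the tp63 feature, 2.31-fold higher (1.8 to 2.98), and klf6a, 2.23-fold higher (1.73 to 2.88). The lower ones included drivers of epithelial differentiation: grhl1 was 10.4-fold lower (4.31 to 33), elf3 11.7-fold lower (5.53 to 29.7), and grhl3 had 1 UMI in cluster 1 and 43 in clusters 3 and 4, a ratio of 0.0383 (0.000948 to 0.225). The oral epithelial factor pitx1 measured 581 CPM in cluster 1, 536 in cluster 0, 552 in cluster 7, 632 in cluster 3 and 689.5 in cluster 4 and dlx3b 246 CPM in cluster 1, 234 in cluster 0, 169.8 in cluster 7, 172 in cluster 3 and 235 in cluster 4, so neither set cluster 1 apart. From a list of dental stem cell genes 7 of 12 were higher and none lower (median log2 ratio 1.18), and the members past 2-fold were 2 tp63 features, lgr4, gli1, celsr1a, lrig3 and 1 igfbp5a feature. Against clusters 0 and 7, none of 16 measured features of this list was at least 2-fold higher and 2 were lower. The median log2 ratio there was -0.07. The list summed to 9108 CPM in cluster 1, 9021 in cluster 0 and 8757 in cluster 7, so it did not set cluster 1 apart from them.

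The closest comparison set cluster 1 beside basal clusters 0 and 7 (299 nuclei, 531633 UMIs). Cluster 0 gave 460944 of these UMIs and cluster 7 gave 70689, so ratios to the pair mostly reflect cluster 0. Most genes were within 2-fold: of 4293 features with at least 30 UMIs, 76 (1.77%) were at least 2-fold higher in cluster 1 and 245 (5.71%) at least 2-fold lower, and the median log2 ratio was 0.02. Against cluster 0 alone, 74 of 3972 features (1.86%) were at least 2-fold higher and 236 (5.94%) lower. Against cluster 7 alone, 66 of 1572 (4.2%) were higher and 42 (2.67%) lower. With clusters 0 and 7 together and a minimum of 60 UMIs, 14 of 2390 features were higher and 75 lower. With scaling factors from the TMM method the median of all features moved to -0.17 on the log2 scale, and the numbers became 39 higher and 367 lower, and itgb4, for example, went from a log2 ratio of 0.17 to -0.01. In the range of 625 to 1236 UMIs that clusters 1 and 0 share, which held 114 nuclei of cluster 1, 54 of cluster 0 and 42 of cluster 7, the numbers were 36 higher and 30 lower among 1321 features. In that range the log2 ratio was 1.02 for fermt1, 0.85 for jag2b and 1.25 for cav1, but 0.06 for agrn and 0.15 for bnc2, whose values over all nuclei were 0.54 and 0.53. Depth and the mix of clusters 0 and 7 both differ between the full set and this range, and their part in the differences was not tested.

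No list with at least 5 measured features had a median of 2-fold or more in either direction. Hemidesmosome and basement membrane genes had 15 measured features, none past 2-fold and a median log2 ratio of 0.28. Integrin and focal adhesion genes had 14, of which fermt1 alone was at least 2-fold higher, with a median of 0.41. Both lists include a marker chosen from these data, agrn in the former and itga2.2 in the latter. None of 27 Wnt features, 9 collagen features, 11 FGF features or 9 ectodysplasin features was past 2-fold in either direction. Other lists had members at least 2-fold lower, such as 2 of 8 hedgehog, 2 of 15 Notch, 2 of 16 dental stem and 2 of 14 stress features. In those lists none was at least 2-fold higher. The gene itga6b had a ratio of 1.15 (1.05 to 1.26) to clusters 0 and 7, itgb4 of 1.13 (0.991 to 1.28), plecb of 1.21 (1.13 to 1.29) and agrn of 1.45 (1.3 to 1.63). Cluster 7 was level with or above cluster 1 for these, with 5376 CPM of itga6b and 9449.8 of plecb, and cluster 0 was below it.

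The 10 genes with the highest ratio, among those seen in at least 15% of the nuclei of cluster 1, were fermt1, tmem65, plxnb1b, neto1l, apbb2b, celsr1a, roraa, antxr2a, wnt7bb and ppm1e. They were picked for this ratio, so its direction is no further result. Suffix 1 gave 86464 of the 146240 UMIs of cluster 1 and 219249 of the 531633 of clusters 0 and 7, so a ratio over both can exceed the ratios within them. With the suffix as a stratum (Mantel-Haenszel ratio), the log2 ratios of the 10 ran from 0.67 for neto1l to 1.20 for fermt1, compared with 0.93 and 1.22 without it. The kindlin-1 gene fermt1 measured 349 CPM in cluster 1, 135 in cluster 0, 255 in cluster 7, 47.9 in cluster 3 and 51.3 in cluster 4, which was 2.32-fold higher (1.6 to 3.33) than in clusters 0 and 7. This ratio was 2.1 among nuclei with barcode suffix 1 and 2.55 among those with suffix 2. At 500 UMIs per nucleus 18% of cluster 1, 7.69% of cluster 0, 15.4% of cluster 7 and 2.69% of Immune nuclei carried a UMI of it.

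The nuclear receptor gene roraa had the most UMIs of the 10, at 2291 CPM in cluster 1, 1237 in cluster 0, 1471 in cluster 7, 1349.5 in cluster 3 and 609 in cluster 4. Its ratio to clusters 0 and 7 was 1.81 (1.58 to 2.06), and it was 2.27 among nuclei with barcode suffix 1 and 1.18 among those with suffix 2. As 45.7% of Immune nuclei also carried a UMI of it at 500 UMIs, against 44.4% of cluster 1, detection did not set the cluster apart. The planar polarity cadherin gene celsr1a was 1.86-fold higher (1.38 to 2.48), with ratios of 1.64 and 1.59 in suffixes 1 and 2, but its log2 ratio of 0.90 was 0.19 after thinning. The Wnt ligand gene wnt7bb was 1.79-fold higher (1.32 to 2.42), with 1.99 and 1.66, and the semaphorin receptor gene plxnb1b 1.94-fold higher (1.33 to 2.81), with 2.34 and 1.2.

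The membrane protein gene tmem65 was 2.07-fold higher (1.58 to 2.69) and antxr2a, which encodes a receptor that binds basement membrane proteins, 1.79-fold higher (1.33 to 2.4). Outside the Epithelial class antxr2a measured 571 CPM, above its 479 in cluster 1. The gene neto1l was 1.9-fold higher (1.46 to 2.45) over all nuclei, but its ratio was 1.8 among nuclei with barcode suffix 1 and 0.857 among those with suffix 2, so its direction was not shared.

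At the lower end stood plekha7a, tnika, rhpn2, strbp, magi1b, tdrkh, ccnd2a, plekhn1, map2k5 and slco2b1, picked in the same way. The adherens junction gene plekha7a had 3 UMIs in cluster 1 (20.5 CPM) against 141 CPM in cluster 0, 42.4 in cluster 7 and 587 in cluster 4, a ratio of 0.16 (0.0323 to 0.489). The Wnt-associated kinase gene tnika was 4.48-fold lower (2.11 to 11.4), with 241 CPM in cluster 0 and 42.4 in cluster 7. Here cluster 0 was the higher of the basal pair and cluster 7 was close to cluster 1. For magi1b the levels were 41 CPM in cluster 1, 165 in cluster 0, 14.1 in cluster 7, 297 in cluster 3 and 1496 in cluster 4, and for the transporter gene slco2b1 82.1 CPM in cluster 1, 256 in cluster 0, 70.7 in cluster 7, 708 in cluster 3 and 822 in cluster 4. In the shared range of UMIs the log2 ratio of magi1b turned from -1.71 to 0.40, while plekha7a went from -2.43 to -2.47 and tnika from -2.07 to -1.32.

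Of these 10 genes 5 were higher in cluster 1 than in cluster 7, and 7 were higher in clusters 3 and 4 than in clusters 0 and 7. Over all 245 lower features, 61 (24.9%) were at least 2-fold higher in clusters 3 and 4 than in clusters 0 and 7, as were 236 of 3972 (5.94%) features within 2-fold. Both of these comparisons use clusters 0 and 7, so the shares describe the overlap and are no independent result. The cyclin gene ccnd2a, which drives entry into the cell cycle, measured 41 CPM in cluster 1, 137 in cluster 0, 56.6 in cluster 7, 163 in cluster 3 and 80.7 in cluster 4, whereas its relative ccnd2b measured 274 CPM in cluster 1, 291 in cluster 0, 127 in cluster 7, 354 in cluster 3 and 103 in cluster 4.

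Several lower features of the role lists repeated genes already described as high in clusters 3 and 4, and others did not. Among the lower features were evpla (2.15-fold lower (1.11 to 4.65)) and evplb (2.48-fold lower (0.762 to 12.8)) for the envelope, tjp1a (2.1-fold lower (1.12 to 4.37)) for tight junctions, and notch3 (2.48-fold lower (1.47 to 4.45)) and numb (2.36-fold lower (1.08 to 6.11)) for Notch. Further ones were PLXNA1 (2.71-fold lower (1.53 to 5.23)) for guidance, and grhl1 (2.37-fold lower (0.939 to 7.65)) and gata3 (2.59-fold lower (1.19 to 6.7)) among transcription factors. In cluster 0 evpla measured 167 CPM and notch3 310.2, and in cluster 7 both measured 14.1 CPM, on 1 UMI each. The summed list of superficial markers was 4876 CPM in cluster 1, 5951 in cluster 0, 3862 in cluster 7, 9619 in cluster 3 and 16791 in cluster 4. Cluster 1 thus lay between clusters 0 and 7.

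A few members of the signalling lists were at least 2-fold higher than in clusters 0 and 7, all on fewer than 30 UMIs in cluster 1. The procollagen and chordin-cleaving protease gene bmp1a was 2.39-fold higher (1.42 to 3.99) on 27 UMIs, with ratios of 2.03 and 2.74 in suffixes 1 and 2. A netrin feature, NTN1 (1 of many), was 3.41-fold higher (1.57 to 7.36) on 15 UMIs, and the neurotrophin receptor gene ntrk3b 2.15-fold higher (1.08 to 4.14), with ratios of 3.46 and 0.327 in suffixes 1 and 2. The Hippo kinase partner mob1a was 2.42-fold higher (1.06 to 5.32) and the insulin-like growth factor receptor gene igf1rb 2.04-fold higher (0.978 to 4.07), the last with an interval that includes 1. Names marked as 1 of many are shared by several features, and how reads were divided among them was not tested.

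Cell cycle genes had few UMIs in cluster 1, and their summed level lay within the range of the other Epithelial clusters. Of 78 features on the cell cycle list 38 had no UMI in cluster 1, 7 in cluster 0, 56 in cluster 7, 32 in cluster 3 and 51 in cluster 4. These clusters also differ in total UMIs, so the numbers of features at 0 do not compare cycling. The list summed to 1183 CPM (173 UMIs) against 1694 CPM in cluster 0, 749.8 in cluster 7, 1933 in cluster 3 and 785 in cluster 4. Only 6 features could be measured against clusters 0 and 7, with a median log2 ratio of -0.41 and none at least 2-fold higher. The 2 at least 2-fold lower were ccnd2a and atad2b (2.48-fold lower (1.19 to 5.95)). The replication helicase gene mcm4 had 8 UMIs in cluster 1 and 7 in clusters 0 and 7, under the minimum of 30 for the counts above, a ratio of 4.15 (1.32 to 13.5). It is a single member under that minimum and does not describe the list. Immediate early and stress genes, which can mark handling of the tissue, summed to 3337 CPM in cluster 1 and 3675 in cluster 0, and fosab had a ratio of 1.13 (0.90 to 1.4).

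Genes highest in cluster 1 were then sought among all 4205 symbols with at least 5 UMIs in it. For 16 of them the level was above that of each of clusters 0, 7, 3 and 4 with all 4 intervals of the ratio above 1. They were roraa, cav1, cd276, lrfn4b, kctd6a, cyp24a1, celsr1a, tmem65, jag2b, arrdc3a, AOPEP, antxr2a, kcnn4, sept9a, thbs1a and neto1l. Against clusters 0 and 7, 12 of the 16 had ratios above 1 in both suffixes, a direction that the choice of genes largely fixed, and cyp24a1, kcnn4, lrfn4b and neto1l did not.

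The caveolin gene cav1, for the coat protein of caveolae, measured 403 CPM in cluster 1, 243 in cluster 0, 184 in cluster 7, 57.4 in cluster 3 and 80.7 in cluster 4, and 83.3 in nuclei outside the Epithelial class. It was 1.72-fold higher (1.24 to 2.36) than in clusters 0 and 7, with ratios of 1.57 and 1.69 in suffixes 1 and 2, and 500 UMIs showed it in 15.2% of cluster 1, 12% of cluster 0 and 1.35% of Immune nuclei. The cell surface immunoglobulin gene cd276 (B7-H3) measured 342 CPM in cluster 1, 158 in cluster 0, 113 in cluster 7, 19.1 in cluster 3 and 51.3 in cluster 4 and was 2.24-fold higher (1.54 to 3.23), with ratios of 1.9 and 2.22. The thrombospondin gene thbs1a, for a secreted matrix glycoprotein, had 22 UMIs in cluster 1 (150.4 CPM), 84.6 CPM in cluster 0 and 14.1 in cluster 7.

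Smaller or unstable differences made up the rest. The arrestin-family gene arrdc3a was 1.44-fold higher (1.13 to 1.82), the septin gene sept9a 1.38-fold higher (1.12 to 1.69) and the aminopeptidase gene AOPEP 1.44-fold higher (1.25 to 1.66) than in clusters 0 and 7. The vitamin D 24-hydroxylase gene cyp24a1 rested on 15 UMIs and its ratio was 0.845 among nuclei with barcode suffix 1 and 5.7 among those with suffix 2. The potassium channel gene kcnn4 had ratios of 2.64 and 0.817 in suffixes 1 and 2, and lrfn4b of 2.24 and 0.991. For jag2b the same pair was 1.8 and 1.13, against 9.39 and 8.58 for cluster 1 over clusters 3 and 4.

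Whether cluster 1 stays apart from clusters 0 and 7 at equal depth was looked at by clustering the 694 Epithelial nuclei with at least 500 UMIs again after thinning each to 500. This gave 8 clusters at resolution 1. Of the 178 nuclei of cluster 1, 107 (60.1%, 52.5% to 67.4%) fell in clusters of which cluster 1 was the largest contributor, 62 (34.8%) in ones led by cluster 0 or 7, and 9 (5.06%) in ones led by cluster 3 or 4. One recomputed cluster held 23 nuclei each of clusters 1 and 0 and was counted for cluster 0; counted for cluster 1, the first values become 130 (73%) and 39 (21.9%). The first recomputed cluster held 58 nuclei from cluster 1, 42 from cluster 0, 29 from cluster 7, 3 from cluster 3 and 1 from cluster 4, and the third held 49, 37, 13, 6 and 1. Cluster 1 was therefore mixed with clusters 0 and 7 and rarely with clusters 3 and 4 at this depth, and no recomputed cluster was made of it alone. The share in clusters led by cluster 1 ranged from 46.1% at resolution 1.4 to 77.5% at resolution 0.6, and it was 76.6% without thinning. Resolution 0.6 gave only 3 clusters, and the one led by cluster 1 held 138 of its nuclei beside 114 of cluster 0 and 60 of cluster 7. A higher share there is thus not a cleaner separation.

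**Figure D4:**
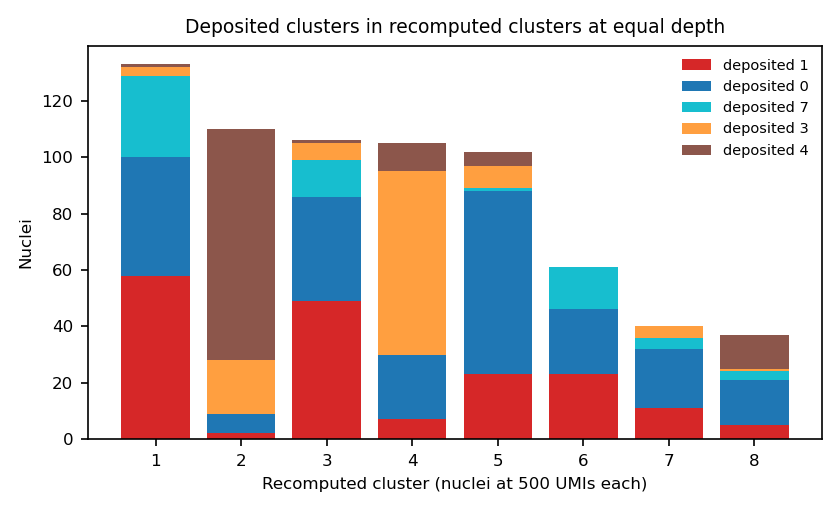
Nuclei per recomputed cluster (x axis, 1 to 8, largest first; 694 nuclei at 500 UMIs each), stacked by deposited cluster. Clusters 1 and 3 hold 58 and 49 nuclei of deposited cluster 1 beside 42 and 37 of cluster 0, and cluster 2 holds 82 of cluster 4 beside 2 of cluster 1.

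Against the 488 nuclei outside the Epithelial class (504361 UMIs), 570 of 4696 features (12.1%) were at least 2-fold higher in cluster 1 and 1082 (23%) at least 2-fold lower, with a median log2 ratio of -0.10. The named higher genes included fermt1 (5.17-fold higher (3.29 to 8.23)), postnb (5.1-fold higher (3.76 to 6.96)) and jag2b (4.77-fold higher (3.6 to 6.33)), the last a marker chosen from these data. The EGF-family ligand gene epgn was 5.12-fold higher (3.23 to 8.22) and areg 11-fold higher (5.29 to 25.2). Apolipoprotein E, apoeb, measured 2530.1 CPM in cluster 1, 2479.7 in cluster 0, 2009 in cluster 7, 449.8 in cluster 3 and 359 in cluster 4, and was 4.74-fold higher (4.04 to 5.57). Of 14 measured hemidesmosome and basement membrane features 10 were at least 2-fold higher, of 14 desmosome and envelope features 6 were, and of 12 collagen features 2 were and 4 were lower. The higher hemidesmosome and basement membrane features again include the marker agrn.

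Among the lower genes, the F-BAR gene fnbp1b had no UMI in cluster 1 and 387 outside the class, so it was at least 37.4-fold lower. The lymphoid factor ikzf1 was at least 10.7-fold lower and the Notch-modifying glycosyltransferase mfng at least 13.8-fold lower, both again with no UMI in cluster 1. DOCK2, a regulator of immune cell migration, had 2 UMIs against 390, a ratio of 0.0177 (0.00213 to 0.0643). The mesenchymal transcription factor genes zeb1b and zeb2b had no UMI in cluster 1 against 84 and 154, and the secreted Wnt antagonist sfrp2 none against 61.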

How the data were processed

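The authors deposited 1 table of raw UMI counts (28622 features by 1381 barcodes) whose file headers, like the submitters' processing notes, name Cell Ranger 3.1.0; the genome build is not given in the sources used here. The deposited annotation gives a cluster, a class, a keep flag, the fraction named cyto and embedding scores per barcode. How the authors derived that fraction and those scores is not given in the sources used here. Of the barcodes 85 were left out, 44 with 300 genes or fewer and 41 with 2500 or more, and 1296 were kept.

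Here raw counts were summed per cluster and given as counts per 1000000 UMIs (CPM). Ratios carry exact conditional 95% intervals, levels exact Poisson intervals and shares Clopper-Pearson intervals. PCR duplicates are removed by UMIs, but nuclei of 1 pooled sample are not replicates, so intervals cover counting error only and no test was made. Features needed at least 30 UMIs in both sets together, log2 ratios had 0.5 UMI added to each sum, and a gene with no UMI was set at a floor of 3 UMIs in the whole cluster (20.5 CPM in cluster 1). Of 28622 features, 15287 carry a gene symbol. Depth per cluster ran from 70689 to 460944 UMIs among Epithelial clusters.

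Named genes were the 5 markers, the 10 highest and 10 lowest ratios per comparison (seen in at least 15% of nuclei of the higher set), up to 5 abundant members per list and up to 3 past 2-fold in each direction, and the genes highest in cluster 1. Not every gene so named is printed, and 1 is not reported here. The genes DST, col7a1, PTK2, LGR6, notch2, dlx3b and pitx1, and the features without a symbol, were added after their values were seen. The members and all 33 lists were chosen with earlier results of these data known.

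Doublets were not removed in the main values; Scrublet (expected rate 0.06) called 42 nuclei. Reclustering used scanpy 1.11.5 and leidenalg 0.10.2 with 2000 variable genes, 30 components and 15 neighbours. TMM factors came from edgeR 4.0.16, used for scaling only. The procedure was tested on simulated data. Alternatives were another scaling, other minimum counts and prior counts, thinned or trimmed nuclei, each suffix alone and each reference cluster alone. The range of UMIs shared by clusters 1 and 0 and the barcode suffix as a stratum were added after seeing the data, as were the trimmed and doublet-free versions of the share of cluster 1.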

Additional observations from a re-analysis of the deposited data

Results flagged for a closer look

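The 85 barcodes that the authors left out lie outside the comparisons above. Summed over them, the 5 marker genes of cluster 1 reached 3335 CPM (3198 to 3475), on 2254 of 675936 UMIs. This is above the limit that a count of 0 allows (4.44 CPM), which is why it is listed here, but it is no higher than the 3379 CPM of all kept nuclei. The level was 1908 CPM in the 44 barcodes with 300 genes or fewer and 3373 CPM in the 41 with 2500 genes or more, compared with 6818 CPM in cluster 1. All 41 of the barcodes with many genes carried at least 1 marker UMI, as did 11 of the 44 with few genes. The left-out barcodes carry no group here, and which cluster they came from was not tested.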

How the results depend on the processing

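Counts of features past 2-fold followed the minimum number of UMIs and the depth. Of 5320 pairs of a gene ratio and an alternative, 18 reversed a difference past 2-fold, 293 moved outside the main interval and 5009 did neither. Only a difference past 2-fold in the main values could count as reversed, so 18 of 5320 is not a rate of reversal. A changed sign of a smaller difference, such as neto1l in suffix 2, was not counted as one. Of the 18 reversals 12 came with cluster 7 alone as reference, where 48 pairs moved and 80 did neither. Against clusters 0 and 7 the main numbers of 76 higher and 245 lower became 311 and 620 with a minimum of 15 UMIs, 14 and 75 with 60, 2817 and 2010 with none, 27 and 55 with nuclei thinned to 500 UMIs, and 36 and 30 in the UMI range shared by clusters 1 and 0. With TMM factors 39 were higher and 367 lower. The lower number was 141 without the highest 5% of nuclei by UMIs, 95 in suffix 1, 125 with a prior count of 2 and 42 against cluster 7 alone, beside 53, 60, 92 and 66 higher. Against clusters 3 and 4 (453 and 549) the numbers were 806 and 1030, 233 and 273, and 3432 and 3474 at the 3 other minimums, 275 and 273 after thinning, 177 and 207 in suffix 2, and 257 and 242 in the shared range. Against nuclei outside the class (570 and 1082) they were 930 and 1877, 348 and 553, 3244 and 4621, 378 and 550, 309 and 471, and 402 and 520 in the same order. Fewer features reach the minimum when nuclei or UMIs are left out, so these numbers are not shares. Against clusters 3 and 4, 15.8% of tested features were higher in the main values, 18.6% after thinning and 18.1% in suffix 2. The lower shares were 19.1%, 18.5% and 21.2% in the same order. Against clusters 0 and 7, 1.77% were higher in the main values, 1.55% after thinning and 2.73% in the shared range. The lower shares there were 5.71%, 3.16% and 2.27%. The share of cluster 1 was 14.9% without the lowest 20% of nuclei, and the share with any marker 97.8% at 800 UMIs and 95.9% unthinned. Reclustering gave 77.5% and 46.1% at resolutions 0.6 and 1.4 and 76.6% unthinned. Against cluster 7 alone the log2 ratio turned positive for PLXNA1 (3.71), notch3 (2.41), grhl1 (2.41), evpla (1.76), evplb (1.76), plekhn1 (1.27), magi1b (1.07), strbp (1.07), grhl3 (0.54), slco2b1 (0.14) and tnika (0.051), and negative for ntrk3b (-0.25). It also turned for ntrk3b in suffix 2 (-1.07), cyp24a1 in suffix 1 (-0.10), evplb in suffix 2 (0.064), magi1b and sufu in the shared range (0.40 and 1.62), and edar against nuclei outside the class without the lowest 20% of nuclei (-0.32). For these reversals the cause was not tested. In cluster 7 the floor of 3 UMIs is 42.4 CPM. PLXNA1, notch3, grhl1, evpla, evplb, magi1b and grhl3 all lay below it there, so the size of their ratios to cluster 7 depends on the 0.5 UMI added to each sum. In cluster 1 itself grhl3 had 1 UMI, evplb 3 and grhl1 5. No paired analysis was possible because no result comes from a test and no label pairs samples; with the barcode suffix as a stratum, 86 features were higher and 251 lower than in clusters 0 and 7, and no listed gene reversed. Depth limits the low side: 3 UMIs in cluster 1 are 20.5 CPM, so a gene at 0 there is not shown to be absent.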

Other observations

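Among features without a gene symbol, a pair chosen after its values were seen was far lower in cluster 1 than in clusters 0 and 7 together. ENSMZEG00005027833 had 4 UMIs in cluster 1 (27.4 CPM, 7.45 to 70) and 416 in clusters 0 and 7 (782 CPM, 709 to 861). ENSMZEG00005005776 had 2 UMIs in cluster 1 (13.7 CPM, 1.66 to 49.4) and 268 in clusters 0 and 7 (504 CPM, 446 to 568). The sources used here pair neither identifier with a gene name, so no role is given.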
